A study of Mus musculus with 10 samples.

Results

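Wapal and Smc3 act on the same machine from opposite ends. Cohesin is a protein ring built from Smc1, Smc3, a kleisin subunit and a Stag subunit, and it holds sister chromatids together and shapes DNA into loops. Wapal (gene symbol Wapl) works with Pds5 proteins to open the ring and release it from chromatin. Other work found that cells short of Wapal keep cohesin on DNA for longer, whereas cells short of Smc3 lose a part of the ring itself. In the cells used here, the study saw no significant rise of the ring subunit Rad21 at the sites it tested after Wapal depletion. It also described the expression changes of both depletions as very similar. In embryonic stem cells (ESCs) cohesin is found at enhancers, promoters and CTCF-bound sites, and ESCs rely on it to stay pluripotent.

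The comparison set 4 arrays of Wapal-depleted ESCs directly against 4 arrays of Smc3-depleted ESCs, 8 of the 10 arrays of the series, with the 2 Empty Vector arrays used to show which side had moved. Empty Vector entered no difference between the arms but did enter the estimate of spread, and a fit of the 8 shRNA arrays alone called 3552 probe sets higher and 5244 lower, beside 3022 and 4798. The cells were CJ9 ESCs, a line derived from 129svj mice, and each array carried RNA of a separate sample. Each target had 2 lentiviral short-hairpin RNAs (shRNA1 and shRNA2) with 2 arrays apiece, and Empty Vector, the parental pLKO.1 lentivirus without a hairpin, also had 2 arrays. All groups alike were infected for 48 h in polybrene at 10 µg/mL, then moved to medium holding LIF and, for selection, 4 µg/mL of puromycin, and cultured for 48 h after infection, so selection and virus were shared by the controls. The replicates are called biological, but no source used here says that they came from separate infections, so p-values measure the spread between these arrays, which may be in part technical. The labels name no batch or date, and the design text of the series names the Wapal hairpins but not those against Smc3. Any handling that differed between the Wapal and Smc3 samples therefore cannot be told apart from the target of the hairpins. The same holds for each arm against Empty Vector, and so for which arm is said to have moved.

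RNA was measured on Affymetrix Mouse Genome 430 2.0 arrays, and 45037 probe sets were compared on the log2 scale. The median intensity was 38.6 to 39.7 on every array. The upper quartile of log2 intensity was 7.31 to 7.36 on the Wapal arrays, 7.42 to 7.48 on the Smc3 arrays and 7.45 on both Empty Vector arrays. Markers of ESCs were bright throughout: the summed intensity of 8 such genes, among them Pou5f1 and Nanog, was 60987 to 67884 with Wapal shRNAs and 56599 to 62138 with Smc3 shRNAs. Summed intensities were 246 to 276 and 236 to 254 for 8 fibroblast markers, 90 to 141 and 88 to 186 for 4 trophectoderm markers, and 126 to 136 and 100 to 116 for 4 primitive endoderm markers. Of these last 4, only Sox17 differed between the arms by limma (0.44, adjusted p = 0.00641). In a longer list of 23 endoderm markers 8 were lower (34.8%) and 2 higher (8.7%) in Wapal depletion. The lower members were Amn, Col4a1, Col4a2, Cubn, Lama1, Lamb1, Pdgfra and Sparc, and the higher ones Cxcr4 and Sox17. Lama1 appears again below with the basement membrane genes, so the 2 counts are not separate. The fibroblast collagens Col1a1 and Col3a1 did not exceed 22.4 and 7.93 on any array, and Col1a2 did not exceed 44.7. Thy1 was brighter, at 93.9 to 208, and higher in Wapal depletion by limma (0.27, adjusted p = 0.0427). With Empty Vector the fibroblast markers summed to 305 to 343, above both arms. The ESC markers summed there to 62175 to 65166, above every Smc3 array and within the range of the Wapal arrays. Trophectoderm markers gave 99 to 100 with Empty Vector, within the range of both arms. Primitive endoderm markers gave 105 to 110, below every Wapal array and within the range of the Smc3 arrays. In RNA from a whole culture, fewer cells of a type and less RNA per cell cannot be told apart.

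Both targets fell only where they were targeted. Smc3 had intensities of 1434, 1460, 1517 and 1487 on the Wapal arrays and of 187, 176, 223 and 189 on the Smc3 arrays, beside 1536 and 1555 with Empty Vector. No array of either kind overlapped the other, and the level with Wapal shRNAs lay 7.64-fold above that with Smc3 shRNAs (log2 difference, Wapal minus Smc3, 2.93 ± 0.07 SE, adjusted p = 2.65e-08). Wapl had intensities of 929 and 1005 with Wapal shRNA1, 235 and 217 with Wapal shRNA2, 2536 and 2511 with Smc3 shRNA1, then 2985 and 3104 with Smc3 shRNA2. Wapal shRNA2 thus left less Wapl RNA than Wapal shRNA1, and the log2 difference was -2.57 ± 0.07 (adjusted p = 2.65e-08). The Wapal and Smc3 arms differed in the depth of knockdown: against Empty Vector, Wapl fell by 2.46 in Wapal depletion and Smc3 fell by 3.0 in Smc3 depletion on the log2 scale.

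The arms differed at 7820 probe sets (adjusted p under 0.05), of which 3022 were higher (6.71% of those tested) and 4798 lower (10.7%) in Wapal depletion. Most differences were small, with a median size of 0.391 among those called, and 43 probe sets were over 2-fold higher and 143 over 2-fold lower. All 4 Wapal arrays lay above all 4 Smc3 arrays at 3093 probe sets (6.87%) and below them at 3451 (7.66%). Of the called probe sets, 6454 differed in the same direction in each of the 4 pairings of a Wapal hairpin with an Smc3 hairpin. Lower calls were found mostly at probe sets of medium brightness: 21.2% of those with a mean log2 level of 6 to 8 were lower and 8.43% higher, and 23% and 9.73% of those at 8 to 10, against 1.33% and 2.85% under 4. On the brightest probe set of each of 18193 genes, 1394 genes were higher (7.66%) and 2692 lower (14.8%). These shares are the background for the gene groups that follow. They are not matched for brightness. A list of medium-bright genes can exceed 14.8% lower and still lie near the 21.2% and 23% given above.

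The hairpins set limits on these counts. The p-values above compare arrays within a hairpin, and with the hairpin as a random block 234 probe sets were higher and 741 lower. With each hairpin averaged to 1 value, limma called 0 in either direction, while 4193 had an unadjusted p under 0.05. The number higher was 1892 without Wapal shRNA1 replicate 2, 1788 and 1829 without Wapal shRNA2 replicates 1 and 2, 1673 and 1928 without Smc3 shRNA1 replicates 1 and 2, and 1694 and 1946 without Smc3 shRNA2 replicates 1 and 2.

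Empty Vector served to orient the difference. Wapal depletion differed from Empty Vector at 9.47% of probe sets and Smc3 depletion at 10.1% in the same fit, and these contrasts share the 2 Empty Vector arrays. Among the probe sets higher in Wapal depletion, 751 had fallen from Empty Vector only in Smc3 depletion and 472 had risen only in Wapal depletion. Among those lower, 1265 had risen only in Smc3 depletion and 1200 had fallen only in Wapal depletion. Both depletions had moved the same way but Smc3 further at 129 that fell and 160 that rose, and Wapal further at 56 that fell and 42 that rose. Only 77 moved past the threshold in opposite directions, and at 3668 neither arm differed from Empty Vector. In Wapal depletion only, 1672 called probe sets differed from Empty Vector, and 740 did without Empty Vector replicate 1, 958 without Wapal shRNA1 replicate 2, 945 and 982 without Wapal shRNA2 replicates 1 and 2, 1107 without Smc3 shRNA1 replicate 1 and 1094 without Smc3 shRNA2 replicate 1. In Smc3 depletion only, 2016 differed, and 1277 did without Empty Vector replicate 1 and 1319 without Smc3 shRNA1 replicate 1.

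**Figure D1:**
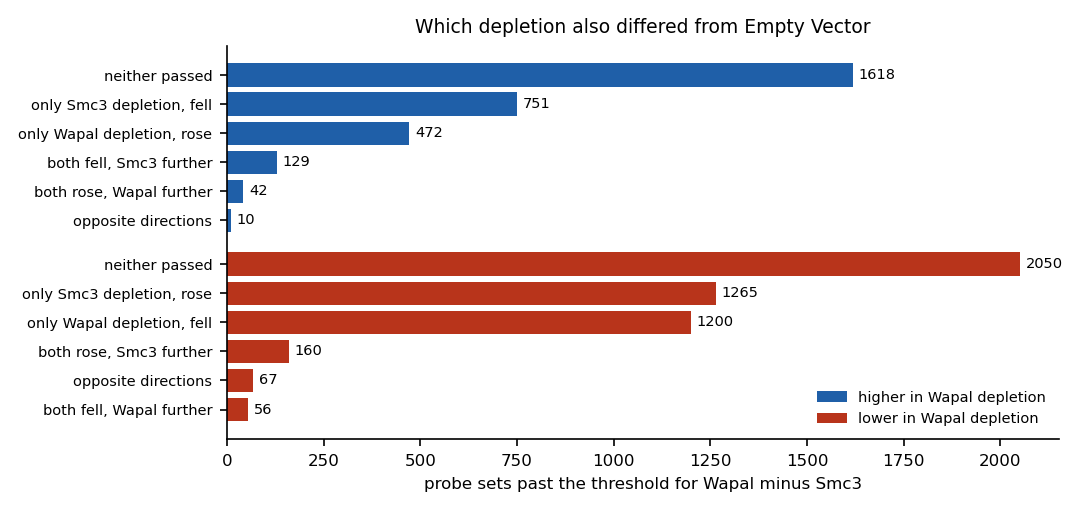
Number of probe sets past the threshold for Wapal minus Smc3 (horizontal axis), by which arm also passed against Empty Vector (vertical axis), blue for those higher and red for those lower in Wapal depletion. The bars for neither arm are the longest in both colours (1618 and 2050), and opposite directions hold 10 and 67.

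The 15 genes that held best among those higher in Wapal depletion were mostly genes that Smc3 depletion had lowered. They were ranked by the smallest of their 4 hairpin differences, with Smc3 first. Inhbb, which encodes the activin beta B subunit, had intensities of 404 and 393 with Wapal shRNA1, 757 and 686 with Wapal shRNA2, 142 and 111 with Smc3 shRNA1, then 171 and 137 with Smc3 shRNA2, beside 1111 and 940 with Empty Vector. Both arms were below Empty Vector and Smc3 depletion further, and Inhbb was 3.86-fold higher in Wapal depletion (log2 difference 1.95 ± 0.11, adjusted p = 6.26e-06). A second, dimmer probe set of Inhbb gave 0.34 ± 0.09 (adjusted p = 0.0279).

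Cell-cycle and chromatin genes stood among them. Ccnd1, which encodes cyclin D1, had intensities of 379, 406, 555 and 595 on the Wapal arrays and of 225, 201, 182 and 162 on the Smc3 arrays, beside 547 and 614 with Empty Vector. The groups did not overlap, and the difference was 1.31 ± 0.08 (adjusted p = 1.31e-05), with 1.23 and 0.97 at its other probe sets. Hmga2, an architectural chromatin protein of early embryos, had 238, 249, 234 and 231 against 122, 107, 128 and 132, with 194 and 255 in Empty Vector. Its difference was 0.96 ± 0.09 (adjusted p = 0.000118), and the Wapal arrays lay within the range of Empty Vector. Id4, an inhibitor of helix-loop-helix factors that BMP signalling induces, differed by 1.25 ± 0.09 (adjusted p = 2.84e-05).

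The others are known for varied roles. Mras, a small GTPase related to Ras, differed by 1.5, Fam43a by 1.67, Lrrc34 by 1.55, Car2, a carbonic anhydrase, by 1.20, and Mymx, a micropeptide known from the fusion of muscle precursors, by 1.17. In each of these 5 genes Smc3 depletion was below Empty Vector and Wapal depletion did not pass against it. Gsta3, a glutathione transferase, differed by 1.15 and had fallen in both arms, and BC028528 differed by 1.17 and had moved in opposite directions. Fst, which encodes the activin-binding protein follistatin, differed by 1.27 ± 0.15 (adjusted p = 0.0003). Its brightest probe set, on which the lists were counted, gave 0.73 ± 0.10 (adjusted p = 0.000668).

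Besides BC028528, Wapal depletion had raised Fstl5 and Spink10. Fstl5, a secreted follistatin-like protein, had intensities of 55.9, 68.0, 49.6 and 30.4 on the Wapal arrays and of 10.6, 13.7, 20.9 and 14.4 on the Smc3 arrays, beside 17.1 and 13.3 with Empty Vector. Smc3 depletion did not pass against Empty Vector, and the difference was 1.76 ± 0.17 (adjusted p = 0.000139). Spink10, of a family of serine protease inhibitors, had 181, 189, 153 and 185 against 98.0, 72.5, 74.9 and 72.8, and 21.6 and 32.1 in Empty Vector. It had risen in both arms and further in Wapal depletion (difference 1.16 ± 0.13, adjusted p = 0.000318).

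**Figure D2:**
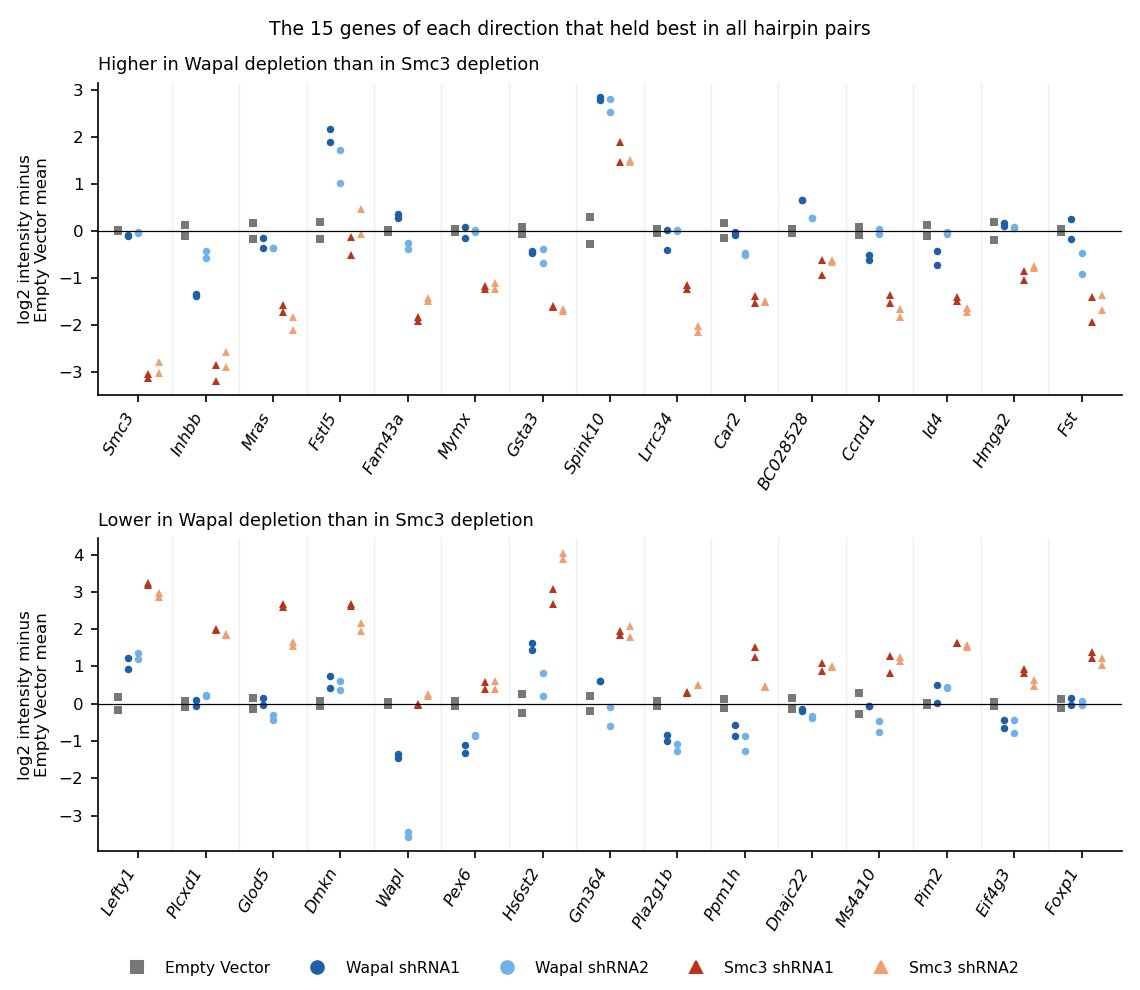
Log2 intensity minus the Empty Vector mean (vertical axis) on each of the 10 arrays for the 15 genes of each direction (horizontal axis), with squares for Empty Vector, circles for Wapal shRNAs and triangles for Smc3 shRNAs. In every gene the 4 circles and the 4 triangles do not overlap, as the rule for choosing the genes required.

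The 15 genes that held best among those lower in Wapal depletion were led by Lefty1, which encodes a secreted inhibitor of Nodal that Nodal signalling itself induces. Lefty1 had intensities of 1426 and 1759 with Wapal shRNA1, 1904 and 1705 with Wapal shRNA2, 6774 and 7024 with Smc3 shRNA1, then 5436 and 5843 with Smc3 shRNA2, beside 663 and 842 with Empty Vector. It rose in both arms, 2.26-fold in Wapal depletion and 8.35-fold in Smc3 depletion, and Wapal depletion lay 3.69-fold below Smc3 depletion (log2 difference -1.88 ± 0.10, adjusted p = 5.92e-06).

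Hs6st2, a heparan sulfate sulfotransferase, and Dmkn, which encodes the secreted protein dermokine, followed the same order. Hs6st2 had 42.0, 47.5, 27.2 and 17.8 on the Wapal arrays and 97.9, 131, 255 and 228 on the Smc3 arrays, beside 12.9 and 18.4 with Empty Vector (difference -2.40 ± 0.16, adjusted p = 1.78e-05). The lowest of its Wapal arrays lay within the Empty Vector range, and of its 3 dimmer probe sets 1 passed, at -0.84. Dmkn had 18.2, 22.8, 17.5 and 20.8 against 84.5, 88.0, 52.9 and 61.1 (difference -1.83 ± 0.10, adjusted p = 5.92e-06).

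Several genes had risen from Empty Vector with Smc3 depletion alone. Glod5, of the glyoxalase domain family, had intensities of 61.2, 54.0, 40.8 and 45.1 with Wapal shRNAs, 355, 335, 162 and 175 with Smc3 shRNAs, and 50 and 61.1 with Empty Vector, a difference of -2.28 ± 0.09 (adjusted p = 5.14e-07). The rise was larger with Smc3 shRNA1 than with Smc3 shRNA2. Foxp1, a forkhead transcription factor, had 184, 212, 184 and 199 against 500, 444, 442 and 391, with 174 and 207 in Empty Vector (difference -1.19 ± 0.09, adjusted p = 3.79e-05). Its 7 other probe sets gave -0.26 to -1.09, and 5 of them passed. Pim2, a survival kinase, differed by -1.24, Gm364 by -1.79, Ms4a10 by -1.47 and Dnajc22, a DnaJ co-chaperone, by -1.26 with -0.52 at its brighter probe set. Plcxd1 differed by -1.81 at a dim probe set, while its brighter probe set gave 0.00 (adjusted p = 0.986).

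A smaller set lay between the arms, below Empty Vector with Wapal shRNAs and above it with Smc3 shRNAs. Pex6, a peroxisome assembly ATPase, had intensities of 143, 164, 198 and 193 on the Wapal arrays, 534, 467, 546 and 467 on the Smc3 arrays, and 338 and 373 with Empty Vector. No group overlapped another, and the difference was -1.54 ± 0.09 (adjusted p = 7.32e-06), with -1.55, -1.35, 0.09 and -0.06 at its other probe sets. Pla2g1b, a secreted phospholipase, had 147, 163, 121 and 138 against 356, 362, 415 and 410, with 278 and 306 in Empty Vector (difference -1.44 ± 0.08, adjusted p = 5.92e-06). The phosphatase gene Ppm1h (-1.82) and the translation initiation factor gene Eif4g3 (-1.29) had the same order, and other Eif4g3 probe sets gave 0.39, 0.03 and -0.36.

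Cohesin genes other than the targets were lower in Wapal depletion where they passed. Of 21 measured genes of the ring, its loader and its release, Smc3 was higher and 7, counting Wapl, were lower (33.3%, beside 14.8% of all genes). The median difference was -0.14 beside 0.01 over all genes. These counts include both targets, whose calls the hairpins themselves set. Plk1, also among the lower genes, gave -0.32 (adjusted p = 0.0214) with overlap of the arms. Stag2, a subunit of the ring in somatic cells and ESCs, had 915, 853, 981 and 964 on the Wapal arrays and 1404, 1395, 1063 and 1170 on the Smc3 arrays, beside 692 and 723 in Empty Vector. Its difference was -0.43 ± 0.07 (adjusted p = 0.00199), and it had risen in both arms, further with Smc3 depletion. Pds5b, a partner of Wapal, differed by -0.42 ± 0.08 (adjusted p = 0.00538). Stag2 (adjusted p = 0.0886) and Pds5b (0.149) lost their calls with the hairpin as a random block, as did Nipbl, Stag1 and Hdac8 (0.242, 0.22 and 0.455). The loader Nipbl (-0.30), Stag1 (-0.26) and the Smc3 deacetylase Hdac8 (-0.40) passed with all arrays, but each lost its call on leaving out any 1 of several arrays, 5, 6 and 4 of the 8 respectively. Without Smc3 shRNA1 replicate 1 or Smc3 shRNA2 replicate 1, 3 genes of the list were lower, and without Wapal shRNA1 replicate 2 or Wapal shRNA2 replicate 2, 4 were. Of 15 condensin and other SMC complex genes, limma called 1 higher and 0 lower, with 4 at an unadjusted p under 0.05.

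Nodal and activin genes held several of the largest differences. Nodal and activins signal through shared receptors and Smad2/3 with the cofactor Foxh1, Lefty proteins and follistatin hold them back, and the pathway keeps epiblast cells from leaving pluripotency too early. Of 20 measured genes 8 were lower (40%) and 3 higher (15%) in Wapal depletion. Among the targets, Lefty2 had intensities of 662, 724, 563 and 549 on the Wapal arrays and of 1817, 1862, 821 and 899 on the Smc3 arrays, beside 332 and 510 with Empty Vector. The groups did not overlap, and the difference was -1.02 ± 0.12 (adjusted p = 0.000305), with -0.31 for Wapal shRNA1 minus Smc3 shRNA2. Skil, a Smad-binding repressor that the pathway induces, had 2554, 2575, 2801 and 2930 against 4407, 4466, 3018 and 3193, with 1290 and 1633 in Empty Vector. It had risen in both arms and further with Smc3 depletion (difference -0.45 ± 0.08, adjusted p = 0.00417). Lefty2 (adjusted p = 0.087) and Skil (0.182) lost their calls with the hairpin as a random block.

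Receptors followed with smaller values. Acvr2a, Acvr2b and Acvr1b, the activin and Nodal receptors, differed by -0.40, -0.42 and -0.37 (adjusted p = 0.00398, 0.00585 and 0.00945), without overlap of the arms. All 3 lost their calls with the hairpin as a random block (0.0667, 0.0853 and 0.193), and Acvr1b also with the labels of 2 Wapal arrays exchanged (0.074). Acvr2a had 272, 245, 242 and 237 on the Wapal arrays, about the Empty Vector values of 252 and 242, and 314, 338, 315 and 346 on the Smc3 arrays. Nodal itself had 2356 and 2500 with Wapal shRNA1, 3690 and 3342 with Wapal shRNA2, 3790 and 4071 with Smc3 shRNA1, then 3198 and 3197 with Smc3 shRNA2, beside 2334 and 2443 with Empty Vector. The arms overlapped, and the difference of -0.28 ± 0.07 (adjusted p = 0.0203) lost its call without Wapal shRNA1 replicate 1, Wapal shRNA2 replicate 2, Smc3 shRNA1 replicate 2 or either Smc3 shRNA2 array (adjusted p up to 0.0773). Foxh1 differed by -0.48 ± 0.11 (adjusted p = 0.0129), with overlap, and lost its call without Wapal shRNA2 replicate 2, Smc3 shRNA1 replicate 1 or Smc3 shRNA2 replicate 1 (up to 0.0572). Nodal (0.449) and Foxh1 (0.255) also lost their calls with the random block. On the side higher in Wapal depletion were the ligand subunit Inhbb and the ligand trap Fst described above.

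BMP genes were more often higher than lower in Wapal depletion, though most did not pass. BMP signals pass through Smad1/5 to the Id genes, which with LIF keep mouse ESCs from differentiating. Of 23 measured genes 8 were higher (34.8%, beside 7.66% of all genes) and 3 lower, with a median of 0.01, and 6 were higher without any 1 of the shRNA arrays. Bmp4, the ligand, had intensities of 1004, 1084, 794 and 822 on the Wapal arrays, 469, 477, 548 and 512 on the Smc3 arrays, and 1049 and 785 with Empty Vector. Wapal depletion did not pass against the control, and the Smc3 arrays lay below both (difference 0.88 ± 0.09, adjusted p = 0.000192). The feedback inhibitor Smad6 differed by 0.73 ± 0.12 (adjusted p = 0.00202) with overlap of the arms, from 0.10 for Wapal shRNA1 minus Smc3 shRNA1 to 1.36 for Wapal shRNA2 minus Smc3 shRNA2. Bambi, a decoy receptor, differed by 0.43 ± 0.07 (adjusted p = 0.00301). Smad6 (adjusted p = 0.16) and Bambi (0.0756) lost their calls with the hairpin as a random block.

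Id2 differed the other way from Id4. It had 113, 124, 123 and 132 on the Wapal arrays, 424 and 294 with Smc3 shRNA1, 141 and 172 with Smc3 shRNA2, and 110 and 106 with Empty Vector. Smc3 shRNA1 gave most of the rise, and the difference was -0.93 ± 0.11 (adjusted p = 0.000452, or 0.127 with the random block). Id4 had 36.9, 30.3, 47.3 and 49.2 against 18.7, 17.8, 16 and 15.1, with 45.9 and 54.3 in Empty Vector.

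Pluripotency genes were higher more often than lower in Wapal depletion, with a median near that of all genes. Of 37 measured genes of core and naive pluripotency, the state of the early epiblast, 8 were higher (21.6%) and 3 lower (8.11%), with a median of 0.04, and 5 or 6 were higher without any 1 array other than Smc3 shRNA2 replicate 1, where it was 9. Nanog had 5943 and 5588 with Wapal shRNA1, 8016 and 7797 with Wapal shRNA2, 4770 and 4753 with Smc3 shRNA1, then 3439 and 3384 with Smc3 shRNA2, beside 6366 and 6874 with Empty Vector. The arms did not overlap, and the difference was 0.74 ± 0.07 (adjusted p = 8.84e-05). Wapal shRNA1 lay below Empty Vector and Wapal shRNA2 above it, and both Smc3 hairpins lay below.

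Prdm14, a repressor that maintains naive pluripotency, had 418, 356, 658 and 625 on the Wapal arrays and 298, 310, 208 and 176 on the Smc3 arrays, beside 670 and 763 with Empty Vector (difference 1.05 ± 0.09, adjusted p = 5.89e-05). Both arms lay below the control and Smc3 depletion further. Fgf4, the growth factor that drives ESCs towards lineage commitment, had 2051, 2175, 3619 and 3536 against 1823, 1720, 1562 and 1469, a difference of 0.75 ± 0.09 (adjusted p = 0.000364) that was larger with Wapal shRNA2. Tfap2c, a factor of naive and germline cells that was counted in the trophectoderm list, differed by 1.01 ± 0.17 (adjusted p = 0.00232). In that list 3 of 23 measured genes were higher (13%) and 3 lower (13%). Fgf4 (adjusted p = 0.0804) and Tfap2c (0.0899) lost their calls with the hairpin as a random block. The 3 lower members of the pluripotency list were Stat3, Lin28a and Lifr. Stat3, which carries the LIF signal, had 225, 239, 276 and 284 on the Wapal arrays and 390, 367, 370 and 337 on the Smc3 arrays, with 287 and 293 in Empty Vector (difference -0.52 ± 0.07, adjusted p = 0.000716). The RNA-binding protein gene Lin28a (-0.83, adjusted p = 0.0435) and the LIF receptor gene Lifr (-0.27, 0.0411) had overlapping arms, and each lost its call without any 1 of 7 of the 8 shRNA arrays and with the random block (0.273 and 0.432). The core factors Pou5f1 and Sox2 gave 0.14 (adjusted p = 0.164) and -0.09 (0.435), and Esrrb and Klf4, which passed below Empty Vector in both arms, gave 0.10 and 0.04.

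Genes of the formative and primed epiblast, the later states on the way to lineage choice, stood on the opposite side from Nanog. Of 23 measured genes 10 were lower (43.5%) and 1, Fst, was higher in Wapal depletion, with a median of -0.21, and 8 to 10 were lower without any 1 shRNA array. Otx2, a homeobox factor of this state, had 832, 836, 999 and 1109 on the Wapal arrays, 2106, 2119, 1645 and 1619 on the Smc3 arrays, and 668 and 773 with Empty Vector. It rose in both arms and further with Smc3 depletion (difference -0.99 ± 0.07, adjusted p = 3.79e-05). Pou3f1, the POU factor Oct6, had 134, 200, 159 and 140 against 396, 392, 329 and 263, with 116 and 104 in Empty Vector (difference -1.12 ± 0.12, adjusted p = 0.000251).

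Lef1, the DNA-binding partner of beta-catenin, had 166 and 204 with Wapal shRNA1, 357 and 356 with Wapal shRNA2, 519 and 517 with Smc3 shRNA1, then 498 and 522 with Smc3 shRNA2, beside 104 and 93 with Empty Vector. All 8 shRNA arrays lay above Empty Vector, and the difference was -1.0 ± 0.08 (adjusted p = 5.57e-05). Cldn6, a tight junction claudin, differed by -1.05 ± 0.08 (adjusted p = 4.71e-05). The de novo DNA methyltransferase Dnmt3b had 1269, 1500, 1319 and 1207 against 2204, 2265, 2643 and 2365, with 1483 and 1553 in Empty Vector (difference -0.84 ± 0.08, adjusted p = 0.000115). Its cofactor Dnmt3l had 3510, 4076, 4339 and 4553 against 6666, 6339, 7179 and 6566 (difference -0.70 ± 0.08, adjusted p = 0.000357). Wapal depletion did not pass against the control for either gene, and all Smc3 arrays lay above it.

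**Figure D3:**
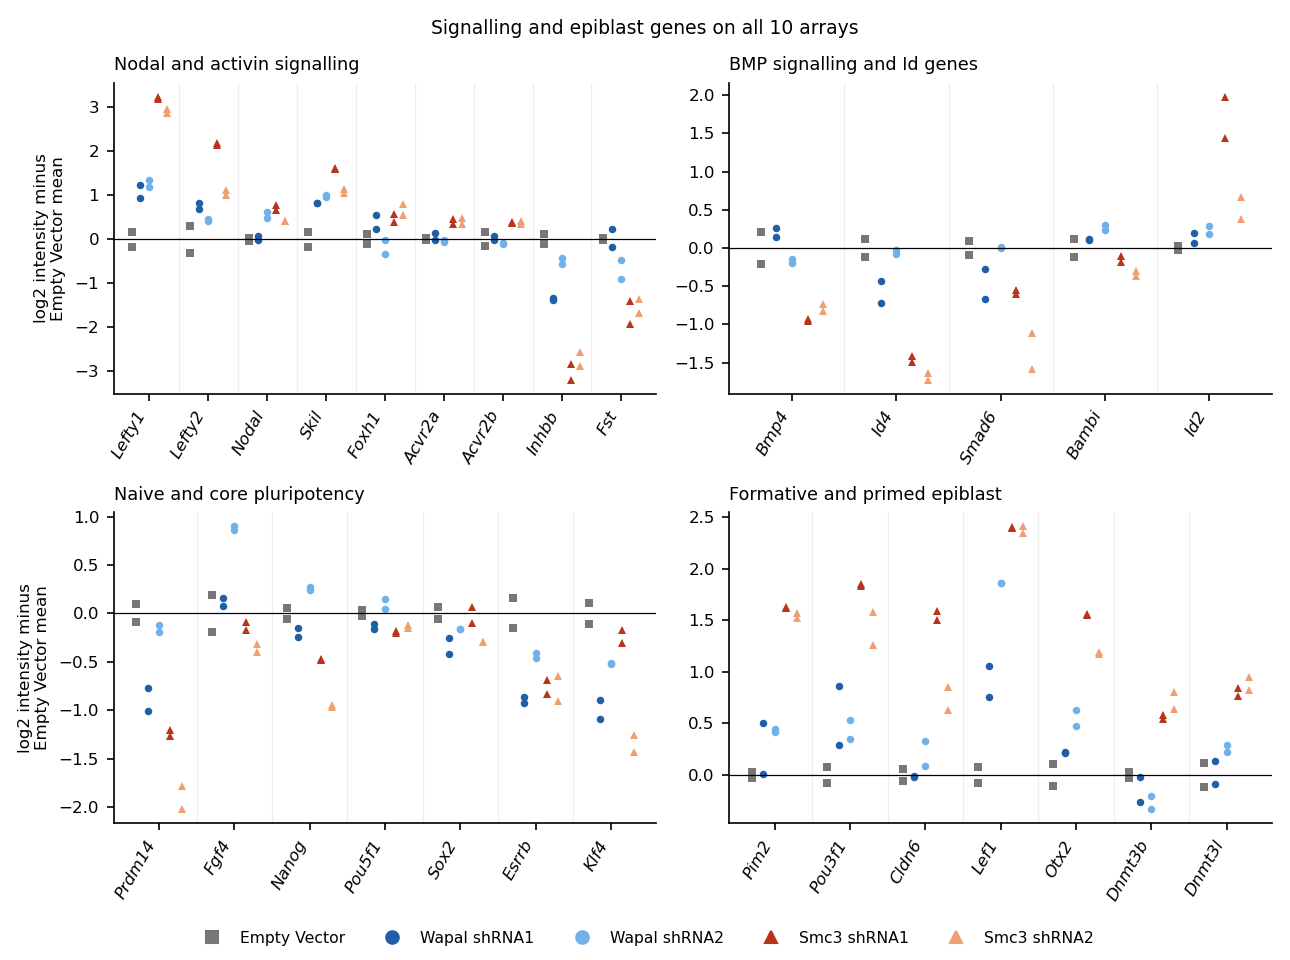
Log2 intensity minus the Empty Vector mean (vertical axis) on all 10 arrays for genes of 4 lists (horizontal axis), with squares for Empty Vector, circles for Wapal shRNAs and triangles for Smc3 shRNAs. Triangles lie above circles for the epiblast genes and Lefty1, and below them for Inhbb, Bmp4, Id4, Prdm14 and Nanog, while Pou5f1, Sox2, Esrrb and Klf4 overlap.

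Of the other signalling lists, Wnt genes were near the background, with 4 of 31 higher (12.9%) and 3 lower (9.68%). The Wnt inhibitor Sfrp1 was higher, at 368, 339, 472 and 483 on the Wapal arrays and 255, 244, 178 and 149 on the Smc3 arrays (difference 1.03 ± 0.08, adjusted p = 4.71e-05). The receptor gene Fzd7 was lower, with a difference of -0.47 ± 0.08 (adjusted p = 0.00243, or 0.0507 with the random block). Of 24 FGF and ERK feedback genes 7 were lower (29.2%) and 3 higher (1 or 2 without any 1 shRNA array), and 4 to 6 were lower without any 1 shRNA array, with 4 after leaving out Smc3 shRNA1 replicate 2, Smc3 shRNA2 replicate 1 or any 1 Wapal array. Fgf15 differed by -1.27 ± 0.13 (adjusted p = 0.000156), the FGF antagonist Il17rd by -0.81 ± 0.08 (adjusted p = 0.000118) and the early response factor Egr1 by -1.03 ± 0.12 (adjusted p = 0.000411). The ERK phosphatase Dusp4 had 66.8, 81.7, 95.6 and 71.1 on the Wapal arrays and 78.0 and 87.9 with Smc3 shRNA1, but 486 and 391 with Smc3 shRNA2. Its difference of -1.28 ± 0.12 (adjusted p = 8.98e-05) came from that hairpin, and was lost with the random block (0.253).

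Hedgehog genes included a marked difference in Gli1, the transcription factor that is itself a target of the pathway. Gli1 had intensities of 21.2, 27.0, 32.0 and 32.8 with Wapal shRNAs, 109, 102, 74.1 and 60.7 with Smc3 shRNAs, and 59.1 and 60.1 with Empty Vector. Wapal arrays lay below the control and Smc3 arrays above it, and the difference was -1.59 ± 0.10 (adjusted p = 1.31e-05). The receptor Ptch1, also a target, had 2189 and 2261 with Smc3 shRNA1 against 858 and 793 with Smc3 shRNA2 and 491, 544, 841 and 811 on the Wapal arrays, and its difference of -1.05 ± 0.09 (adjusted p = 6.88e-05) was 0.00 for Wapal shRNA2 minus Smc3 shRNA2. The inhibitor Sufu (-0.87 ± 0.13, adjusted p = 0.00163) and the signal transducer Smo (-0.54 ± 0.09, adjusted p = 0.0023) were lower as well. Ptch1 (adjusted p = 0.151) and Smo (0.138) lost their calls with the hairpin as a random block. In all 5 of 20 measured genes were lower (25%) and 2 higher. The higher members were Ccnd1 (1.23 at its brightest probe set, adjusted p = 6.26e-06) and Gas1 (0.32, 0.0218). Gli2 (-0.15, adjusted p = 0.51) and Hhip (-0.08, 0.556) did not pass.

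Targets of p53, the factor that answers DNA damage with arrest or death, gave the highest share of lower genes among the lists with at least 15 measured genes. Of 29 measured genes 17 were lower (58.6%) and 3 higher (10.3%), with a median of -0.38, and 14 to 17 were lower without any 1 shRNA array. Zmat3, an RNA-binding protein that p53 induces, had 371, 371, 394 and 338 on the Wapal arrays, 754, 698, 878 and 702 on the Smc3 arrays, and 490 and 548 with Empty Vector. Wapal arrays lay below and Smc3 arrays above the control, with differences of -0.97 to -1.10 over the 4 hairpin pairs (difference -1.04 ± 0.09, adjusted p = 8e-05). The cyclin Ccng1 had 2745, 2332, 3938 and 3741 against 5181, 5764, 5054 and 5378 (difference -0.78 ± 0.08, adjusted p = 0.000154).

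The cell death mediator Perp differed by -0.85 ± 0.08 (adjusted p = 9.4e-05) and the kinase Plk2 by -0.63 ± 0.09 (adjusted p = 0.00101). The members higher were Gadd45a (0.57, adjusted p = 0.000687), the death inducer Pmaip1 (0.52, 0.00144) and the metabolic regulator Tigar (0.49, 0.00183), and the first 2 lost their calls with the random block (0.0888 and 0.0542). Cdkn1a, which encodes the arrest protein p21 and is the best known target, gave 0.05 (adjusted p = 0.806), and Mdm2, the ubiquitin ligase of p53, gave -0.27 (adjusted p = 0.0167), with values near 0 in both pairs that used Smc3 shRNA2.

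Genes of DNA replication were more often higher in Wapal depletion. Of 42 measured genes 12 were higher (28.6%) and 2 lower (4.76%), with a median of 0.04, and 5 to 9 were higher without any 1 array: 5 without Smc3 shRNA1 replicate 2 or Wapal shRNA2 replicate 2, and 7 without Smc3 shRNA2 replicate 1 or Wapal shRNA1 replicate 1. Ccne1, the S-phase cyclin E1, had 1601, 1804, 1322 and 1362 on the Wapal arrays and 906, 923, 1026 and 1030 on the Smc3 arrays, beside 1303 and 1450 with Empty Vector (difference 0.64 ± 0.07, adjusted p = 0.000287). The licensing inhibitor Gmnn (0.38, adjusted p = 0.00528) and the origin protein Orc2 (0.35, 0.00763) were higher, and the polymerase gene Pole was lower (-0.38, 0.00652). All 3 lost their calls with the hairpin as a random block (0.0816, 0.0941 and 0.146). Of 37 mitosis genes 3 were higher (8.11%) and 1 lower (2.7%).

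Lysosomal genes were lower in Wapal depletion or did not pass. The transcription factor Tfeb is known to drive many of them through promoter elements built around an E-box core, CACGTG, which Myc and Max also bind. Tfeb RNA, itself counted in this list, did not differ between the arms (0.05, adjusted p = 0.732). Of 20 measured genes 10 were lower (50%) and 0 higher by limma, with 13 at an unadjusted p under 0.05 in either direction and a median of -0.23, and 6 to 10 were lower without any 1 array, with 6 after leaving out Smc3 shRNA1 replicate 1 or Wapal shRNA2 replicate 1. Gaa, the enzyme that breaks down lysosomal glycogen, had 196, 211, 269 and 193 on the Wapal arrays, 432, 458, 413 and 396 on the Smc3 arrays, and 313 and 333 with Empty Vector. The arms lay on either side of the control, and the difference was -0.98 ± 0.10 (adjusted p = 0.000167). Mcoln1, a lysosomal calcium channel, had 150, 123, 145 and 124 against 157, 207, 223 and 218, with 169 and 184 in Empty Vector (difference -0.56 ± 0.11, adjusted p = 0.00503, or 0.0897 with the random block).

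The other lysosomal genes differed less or by hairpin. The protease Ctsd differed by -0.35 ± 0.08 (adjusted p = 0.0146), and lost its call without Wapal shRNA1 replicate 1, Wapal shRNA2 replicate 1 or Smc3 shRNA1 replicate 1 (adjusted p up to 0.0524). The sterol transporter Npc1 differed by -0.59 ± 0.10 (adjusted p = 0.00198), the sphingolipid activator Psap by -0.50 ± 0.08 (adjusted p = 0.00258) and the protease Lgmn by -0.35 ± 0.07 (adjusted p = 0.00896). The galactosidase Glb1 had 233 and 219 with Wapal shRNA1 but 403 and 457 with Wapal shRNA2, beside 455, 474, 537 and 553 on the Smc3 arrays, so that the arms overlapped (difference -0.69 ± 0.08, adjusted p = 0.0004). The calls of Atp6v0d1 (-0.33), Ctsa (-0.27) and Neu1 (-0.35) were lost without any 1 of 4, 7 and 6 of the 8 shRNA arrays. All 8 of these genes lost their calls with the hairpin as a random block (adjusted p from 0.0698 for Psap to 0.328 for Ctsa), and Npc1 (0.0972), Glb1 (0.0792), Ctsa (0.0756) and Neu1 (0.0823) with the labels of 2 Wapal arrays exchanged.

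Promoters of this group are shown because 10 of its 20 members were lower and many share the E-box core. Each line gives a RefSeq window of 300 bases on GRCm38.p6, 5′ to 3′ along the gene, with each CACGTG in capitals. The windows are chr11:119267713-119268012 on the plus strand for Gaa, chr8:3500269-3500568 on the plus strand for Mcoln1 and chr7:142387778-142388077 on the minus strand for Ctsd.
Gaa: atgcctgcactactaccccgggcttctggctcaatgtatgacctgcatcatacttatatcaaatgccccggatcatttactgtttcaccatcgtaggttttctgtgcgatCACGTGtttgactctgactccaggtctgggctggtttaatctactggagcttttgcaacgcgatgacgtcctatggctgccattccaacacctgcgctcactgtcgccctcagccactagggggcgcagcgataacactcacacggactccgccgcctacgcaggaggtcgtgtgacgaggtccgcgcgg
Mcoln1: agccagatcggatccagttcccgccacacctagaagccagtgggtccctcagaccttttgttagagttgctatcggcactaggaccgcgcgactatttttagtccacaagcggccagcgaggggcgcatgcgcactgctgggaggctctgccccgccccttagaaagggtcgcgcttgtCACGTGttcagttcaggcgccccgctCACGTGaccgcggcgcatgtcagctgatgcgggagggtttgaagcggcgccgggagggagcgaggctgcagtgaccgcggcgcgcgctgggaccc
Ctsd: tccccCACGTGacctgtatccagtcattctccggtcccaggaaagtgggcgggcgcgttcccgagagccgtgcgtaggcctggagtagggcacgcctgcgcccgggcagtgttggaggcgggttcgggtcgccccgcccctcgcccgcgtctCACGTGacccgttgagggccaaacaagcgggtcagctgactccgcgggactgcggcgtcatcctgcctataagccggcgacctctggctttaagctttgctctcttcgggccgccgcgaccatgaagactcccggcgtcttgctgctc
The Gaa window holds 1 core, and those of Mcoln1 and Ctsd hold 2 each. CACGTG reads the same on both strands. Of 17 lysosomal genes with a window, 10 hold the core (58.8%), beside 10.3% of all 14367 genes with a window and 8.74% of all windows. Shares far above that of all genes were also found in the germline list (11 of 19, 57.9%), the network of Myc and Max (7 of 16, 43.8%) and the followed Polycomb targets (2 of 5, 40%). The core was found in 7 of the 9 lower lysosomal genes with a window and in 3 of 8 that did not pass. Neu1 and Psap were the lower genes without it, and all windows printed here are of genes with it. Over all genes, 11.1% of windows of lower genes and 8.78% of those of higher genes hold it. This motif was looked at after the values were known, and the match describes letters, not binding. The GC box of Sp1, GGGCGG on either strand, was found in 62.2% of windows of lower genes, 55.1% of those of higher genes and 52.4% of all windows.

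Basement membrane genes, which encode the sheet of matrix under epithelia and around the embryo, were lower in 13 of 26 cases (50%) and higher in 3, with a median of -0.26, and in 10 or 11 cases without any 1 shRNA array. The laminin chain Lama1 had 51.2, 53.6, 51.9 and 61.6 on the Wapal arrays, 114, 106, 110 and 72.7 on the Smc3 arrays, and 106 and 126 with Empty Vector. Here Wapal depletion was the arm below the control (difference -0.87 ± 0.12, adjusted p = 0.00107). For the linker protein Nid2 Smc3 depletion was the arm above it, at 1470, 1561, 2368 and 1796, with 1023, 1157, 969 and 981 on the Wapal arrays and 885 and 1008 with Empty Vector (difference -0.78 ± 0.10, adjusted p = 0.000477). Col18a1 (-0.69, adjusted p = 0.00077) and Lamb3 (-0.62, 0.00213) were lower, and the laminin receptor chain Itga6 was higher (0.37, 0.00467). Lamb3 (0.0592) and Itga6 (0.125) lost their calls with the hairpin as a random block. Of the fibroblast list, the growth factor receptor Pdgfrb was lower at -1.26 ± 0.10 (adjusted p = 4.71e-05) and the matrix protein Fn1 at -0.80 ± 0.13 (adjusted p = 0.00215), although the fibroblast list as a whole was near the background, with 5 of 26 lower and 2 higher, and both genes lost their calls with the random block (0.0798 and 0.0581).

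Imprinted genes, which are read from 1 parental copy, were lower in 11 of 43 cases (25.6%) and higher in 1. That share of lower genes was near those of medium-bright probe sets (21.2% and 23%). Igf2r, the receptor that clears Igf2, had 272, 352, 322 and 339 on the Wapal arrays and 595, 530, 867 and 582 on the Smc3 arrays, beside 367 and 418 with Empty Vector (difference -0.98 ± 0.13, adjusted p = 0.000641). Phlda2, which restrains placental growth, differed by -0.86 ± 0.10 (adjusted p = 0.000354), Ddc by -0.77 ± 0.07 (adjusted p = 0.000112) and H13 by -0.72 ± 0.08 (adjusted p = 0.000187). The member higher was the growth inhibitor Grb10, at 831, 913, 1226 and 1272 against 735, 645, 681 and 617 (difference 0.64 ± 0.09, adjusted p = 0.00111). H13 (0.0643) and Grb10 (0.0684) lost their calls with the hairpin as a random block. The arrays do not separate the parental copies.

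**Figure D4:**
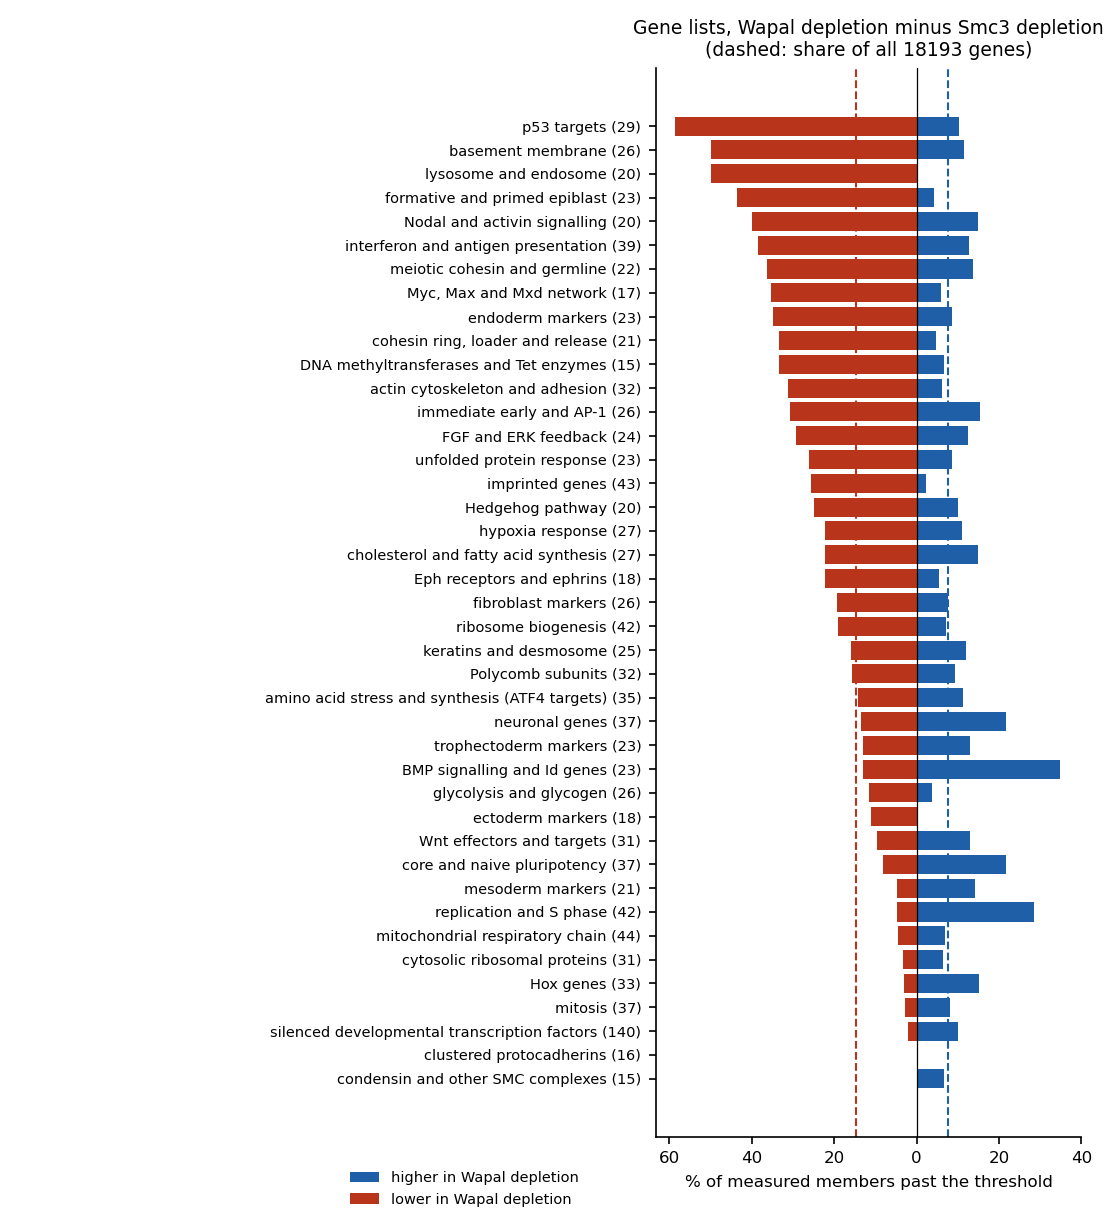
Share of measured members past the threshold (horizontal axis, percent) for each gene list with at least 15 measured genes (vertical axis, number measured in brackets), with those lower in Wapal depletion to the left in red and those higher to the right in blue. Dashed lines mark the shares over all genes, 14.8% and 7.66%, which are not matched for brightness. The p53 targets reach 58.6% on the left and BMP genes 34.8% on the right.

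Polycomb genes, whose products keep developmental regulators silent, were near the background. Of 32 measured subunits 5 were lower (15.6%) and 3 higher (9.38%), with 1 or 2 higher without any 1 shRNA array. Epop, a partner of the methyltransferase complex, had 44.8, 67.1, 68.3 and 80.3 with Wapal shRNAs, 100, 99.5, 131 and 101 with Smc3 shRNAs, and 214 and 201 with Empty Vector, so that it fell in both arms and further in Wapal depletion (difference -0.75 ± 0.13, adjusted p = 0.00299). Bcor (-0.65, adjusted p = 0.000795), Jarid2 (-0.57, 0.000259) and L3mbtl2 (-0.43, 0.00869) were lower, and Cbx6 was higher (0.44, 0.00573). Epop (0.0777), L3mbtl2 (0.125) and Cbx6 (0.104) lost their calls with the hairpin as a random block. Ehmt1, a histone methyltransferase gene counted in another list, had 567, 549, 657 and 682 against 912, 864, 946 and 907, with 790 and 799 in Empty Vector (difference -0.57 ± 0.07, adjusted p = 0.000315). Of 140 developmental transcription factors that are silent in ESCs 14 were higher (10%) and 3 lower (2.14%), and 126 of them had a mean log2 level under 6. Without Wapal shRNA1 replicate 2, Wapal shRNA2 replicate 2 or Smc3 shRNA2 replicate 2, 7 were higher, and without Wapal shRNA2 replicate 1, Smc3 shRNA1 replicate 1 or Smc3 shRNA2 replicate 1, 8 were.

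Derepressed Polycomb targets that the study followed were chosen on these samples, so they are not independent evidence of a direction. Of 7, Lefty1 and Sox11 were lower and Snai2 was higher in Wapal depletion. Snai2, a repressor of epithelial genes, had 150, 142, 132 and 153 on the Wapal arrays and 79.4, 90.4, 105 and 89.5 on the Smc3 arrays, beside 87.6 and 82.2 with Empty Vector (difference 0.67 ± 0.09, adjusted p = 0.000593). Sox11 had 356, 395, 330 and 334 against 434, 408, 426 and 446, with 206 and 205 in Empty Vector. It had risen in both arms, and its difference of -0.28 ± 0.07 (adjusted p = 0.0191) was lost without any 1 of 5 shRNA arrays, up to 0.0732: both Wapal shRNA2 arrays, Wapal shRNA1 replicate 1, Smc3 shRNA1 replicate 1 and Smc3 shRNA2 replicate 2. It was lost as well with the random block (0.207) and with the labels of 2 Wapal arrays exchanged. Hoxd1 (0.21, adjusted p = 0.427), Twist1 (0.03, 0.892), Ppp1r3c (-0.27, 0.379) and Fos (-0.32, 0.21) did not pass.

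Hox genes were dim, with 29 of 33 under a mean log2 level of 6, and 5 were higher (15.2%) and 1 lower (3.03%). Without Wapal shRNA1 replicate 2, Smc3 shRNA1 replicate 1 or Smc3 shRNA2 replicate 1, 2 were higher, and without Wapal shRNA1 replicate 1, Wapal shRNA2 replicate 1 or Smc3 shRNA2 replicate 2, 3 were. Hoxb13 was lower, at 30.1, 34.7, 32.8 and 33.3 on the Wapal arrays, 75, 68.9, 49.7 and 62.7 on the Smc3 arrays, and 24.1 and 23.6 with Empty Vector (difference -0.95 ± 0.09, adjusted p = 0.000104). It rose in both arms and further with Smc3 depletion. Hoxd13 (0.61, adjusted p = 0.000491) and Hoxd12 (0.38, 0.00295) were higher, the latter with intensities of 7.80 to 10.8 on the shRNA arrays and an adjusted p of 0.053 with the random block.

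Germline genes differed in both directions. Of 22 measured, 8 were lower (36.4%) and 3 higher (13.6%), and 3 to 6 were lower without any 1 shRNA array: 3 without Wapal shRNA2 replicate 1, 4 without Wapal shRNA1 replicate 2, Smc3 shRNA1 replicate 1 or Smc3 shRNA2 replicate 2, and 5 without Wapal shRNA1 replicate 1. Meioc, a regulator of meiotic entry, differed by -0.99 ± 0.10 (adjusted p = 0.000173) and the meiotic cohesin subunit Stag3 by -0.59 ± 0.09 (adjusted p = 0.00156). Sycp3, of the synaptonemal complex, had 560, 418, 421 and 393 on the Wapal arrays, 372 and 345 with Smc3 shRNA1, 149 and 186 with Smc3 shRNA2, and 167 and 232 with Empty Vector (difference 0.86 ± 0.13, adjusted p = 0.00127). Stag3 (0.148) and Sycp3 (0.16) lost their calls with the hairpin as a random block. Among 18 Eph receptors and ephrins 1 was higher and 4 lower. The receptor Epha1 was lower (-0.95 ± 0.12, adjusted p = 0.000566), Epha4 was higher (0.80 ± 0.12, adjusted p = 0.00112). Of 37 neuronal genes 8 were higher (21.6%) and 5 lower (13.5%). The stathmins Stmn3 (1.21 ± 0.07, adjusted p = 1.32e-05) and Stmn2 (0.80 ± 0.07, adjusted p = 7.91e-05) were higher, and Dpysl3, which acts on the cytoskeleton of growing axons, was lower with overlap of the arms (-0.99 ± 0.11, adjusted p = 0.000229, or 0.132 with the random block). Without any 1 shRNA array, 4 to 7 of the neuronal genes were higher and 2 to 4 lower.

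Interferon and antigen presentation genes depended on the hairpin. Of 39 measured genes 15 were lower (38.5%) and 5 higher (12.8%) in Wapal depletion. Gbp2, an interferon-induced GTPase, had 22.6 and 28.5 with Wapal shRNA1, then 90.8 and 75 with Wapal shRNA2. Smc3 shRNA1 gave 643 and 463 and Smc3 shRNA2 34.9 and 46.5, beside 12.1 and 13 with Empty Vector. Smc3 shRNA1 stood far above the other hairpins, so the difference of -1.70 ± 0.13 (adjusted p = 4.55e-05) was -4.42 for Wapal shRNA1 minus Smc3 shRNA1 and 1.03 for Wapal shRNA2 minus Smc3 shRNA2. Its relatives Gbp2b (-1.37 ± 0.19) and Gbp3 (-1.43 ± 0.13) and the immunoproteasome subunit Psmb8 (-1.27 ± 0.17) had the same outlying hairpin. All 4 lost their calls with the random block (adjusted p = 0.39, 0.495, 0.286 and 0.287). In the pairs with Smc3 shRNA1, 19 genes were lower with Wapal shRNA1 and 15 with Wapal shRNA2. In the pairs with Smc3 shRNA2, 4 and 3 were lower and 4 and 10 higher. Over all 45037 probe sets, 4523 and 2546 were lower in the pairs with Smc3 shRNA1, in the same order. In those with Smc3 shRNA2, 3680 and 3836 were lower and 2200 and 2818 higher.

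Some members kept their direction in all pairs. Bst2, an antiviral membrane protein, had 334, 315, 199 and 206 on the Wapal arrays, 543, 622, 459 and 474 on the Smc3 arrays, and 175 and 181 with Empty Vector (difference -1.02 ± 0.07, adjusted p = 2.84e-05). Irgm1 (-1.17, adjusted p = 0.000214), the peptide transporter Tap1 (-0.91, 9.22e-05) and B2m (-0.46, 0.00669) lay below in each pair, although all 3 lost their calls with the random block (0.0872, 0.0981 and 0.224) and B2m also with the labels of 2 Wapal arrays exchanged (0.102). Oas1a was the member with the largest positive difference, at 353, 335, 463 and 440 against 238, 239, 231 and 239, with 448 and 422 in Empty Vector (0.73 ± 0.07, adjusted p = 9.13e-05).

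Hypoxia and sugar genes turned with the hairpin pair. Of 27 hypoxia response genes 6 were lower and 3 higher in the comparison of the arms, but 15 were lower for Wapal shRNA1 minus Smc3 shRNA1 and 14 higher for Wapal shRNA2 minus Smc3 shRNA2. Of 26 glycolysis and glycogen genes 3 were lower and 1 higher, with 18 lower and 9 higher in the same pairs. Over all 45037 probe sets, 4523 were lower in the first of these pairs and 2818 higher in the second. Plod2, a collagen hydroxylase induced by low oxygen, had 1145 and 1227 with Wapal shRNA1, 1398 and 1612 with Wapal shRNA2, 3041 and 2772 with Smc3 shRNA1, then 1324 and 1538 with Smc3 shRNA2 (difference -0.61 ± 0.09, adjusted p = 0.00137). Vegfa, the vessel growth factor, had 135, 126, 219 and 234 on the Wapal arrays, 135 and 129 with Smc3 shRNA1, then 57.5 and 87.3 with Smc3 shRNA2 (difference 0.83 ± 0.14, adjusted p = 0.00296). Plod2 (0.271) and Vegfa (0.218) lost their calls with the hairpin as a random block. The count of lower hypoxia genes was 1 without Wapal shRNA2 replicate 1, Smc3 shRNA1 replicate 1 or Smc3 shRNA2 replicate 2, 2 without the other Wapal arrays, and 4 without Smc3 shRNA1 replicate 2.

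Immediate early genes, which respond within minutes to signals, were lower in 8 of 26 cases (30.8%) and higher in 4, with 12 lower for Wapal shRNA1 minus Smc3 shRNA1 and 7 higher for Wapal shRNA2 minus Smc3 shRNA2. Jun (-0.62 ± 0.14, adjusted p = 0.0107) and Zfp36 (-0.62 ± 0.10, adjusted p = 0.00204) had values of 0.16 and 0.15 in the latter pair. Both lost their calls with the random block (0.345 and 0.381). Over all 45037 probe sets, 4523 were lower in the former pair and 2818 higher in the latter. Without Smc3 shRNA2 replicate 1, 5 genes were lower, and 0 to 2 were higher without any 1 shRNA array.

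**Figure D5:**
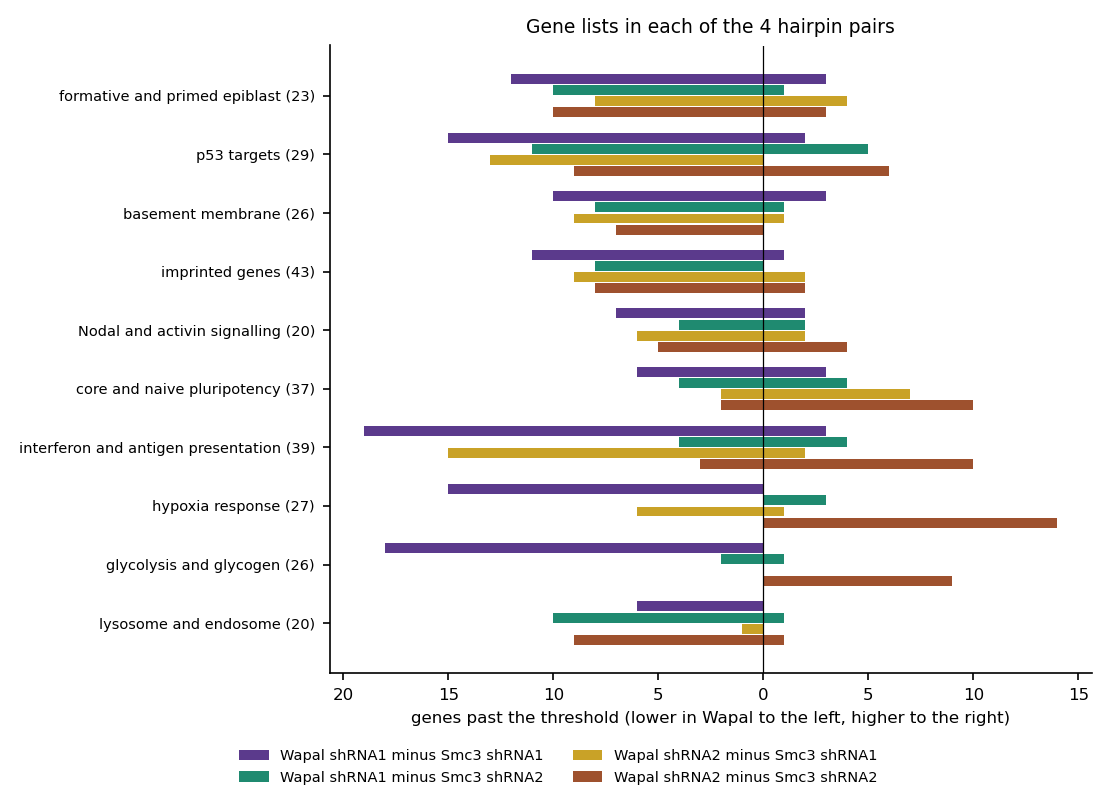
Number of genes past the threshold (horizontal axis, lower in Wapal depletion to the left and higher to the right) in each of the 4 pairings of a Wapal hairpin with an Smc3 hairpin, in 4 colours, for 10 lists (vertical axis, number measured in brackets). Epiblast, p53, basement membrane and imprinted genes lie mostly to the left in each pairing, whereas hypoxia genes go from 15 lower to 14 higher. Total calls also differ between the pairings, from 2546 to 4523 lower and from 1314 to 2818 higher over all 45037 probe sets.

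Pairs of contrasts that share no array were set side by side. Over all probe sets, Wapal shRNA1 minus Smc3 shRNA2 and Wapal shRNA2 minus Smc3 shRNA1 correlated at r = 0.367, and Wapal shRNA1 minus Smc3 shRNA1 and Wapal shRNA2 minus Smc3 shRNA2 at r = 0.059, across 45037 probe sets that are not independent. The difference between the first pair of contrasts was past the threshold at 1682 probe sets (3.73%), 855 of them among the 7820, and at 509 to 904 without any 1 shRNA array. This pairing follows a split of the arrays seen in earlier results of these data, not a label.

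Ribosomal protein and respiratory chain genes seldom passed. Of 31 cytosolic ribosomal protein genes 2 were higher (6.45%) and 1 lower (3.23%), of 44 respiratory chain genes 3 (6.82%) and 2 (4.55%), and of 16 clustered protocadherins, all dim, 0 and 0, with 2 at an unadjusted p under 0.05 in limma. Of 35 targets of the amino acid stress factor Atf4, 4 were higher (11.4%) and 5 lower (14.3%), near the background. Of 42 ribosome biogenesis genes 3 were higher (7.14%) and 8 lower (19%).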

How the data were processed

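The authors made the deposited intensity values from scanned arrays with RMA, which corrects background, normalizes quantiles and summarizes each probe set. They are on a linear scale, and the RMA version and the arrays normalized together are not given in the sources used here. Of 45101 probe sets, 64 controls were left out. GEO's platform annotation gave 1 symbol to 34945, several to 932 and none to 9160. No filter or coordinates of the array design were used, and intensities show no depth, so the number of arrays limits precision.

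Values were taken to log2 and fitted in limma 3.58.1 (R 4.3.3) with 1 mean per hairpin group over all 10 arrays (5 residual degrees of freedom). The contrast was the mean of both Wapal groups minus the mean of both Smc3 groups, two-sided, with Benjamini-Hochberg adjustment over 45037 probe sets and a threshold of 0.05. The procedure was tested on simulated arrays with independent noise of the within-group spread and the same shift in both Wapal hairpins. Differences between hairpins of a target were not simulated, so that test does not cover them. Lists were counted on the brightest probe set of a gene, without a set test. Genes were named if called, without overlap of the arms, and among the first 15 of a direction by their smallest hairpin difference. From each of 44 lists up to 4 called members per direction could be named. Only part of these are named, and which, like the further members, was chosen after their values were seen. The members and lists were chosen with earlier results of these data known. Promoter windows came from RefSeq.

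GEO's labels were used, although the authors elsewhere name a pair of Wapal arrays (replicate 2 of shRNA1, replicate 1 of shRNA2) in exchanged order, which was tried as an alternative. Others were normalization, an offset, an intensity trend, dim probe sets, blocks, hairpin means, single hairpin pairs and each array left out.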

Additional observations from a re-analysis of the deposited data

Results flagged for a closer look

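The Wapal to Smc3 difference of some genes differed between Wapal shRNA1 minus Smc3 shRNA2 and Wapal shRNA2 minus Smc3 shRNA1, which share no array, by limma's test of the first minus the second (adjusted p under 0.05 over all probe sets). Groups of 2 arrays were not tested for outlying arrays. Over all probe sets 3.73% passed this test. The pairing followed a split of the arrays seen in earlier results of these data, not a label. Its 2 contrasts correlated at r = 0.367. Wapal shRNA1 minus Smc3 shRNA1 and Wapal shRNA2 minus Smc3 shRNA2 correlated at r = 0.059, and their difference was not tested. Genes that differed only between those were therefore not flagged.

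The targeted gene Wapl gave 1.83 ± 0.14 (adjusted p = 0.000383), from -1.66 and -3.48 in the 2 contrasts. Interferon genes gave 2.31 for Gbp2b, 2.29 for Psmb8, 2.24 for Gbp3, 2.06 for Gbp2, 1.49 for Irgm1, 1.00 for Tap1 and 1.00 for Bst2 on the log2 scale.

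Signalling genes gave -2.55 for Dusp4 (-2.56 and -0.01), 1.41 for Lefty2, 1.19 for Zfp36, -1.14 for Inhbb (1.38 and 2.52), 1.08 for Id2, -0.93 for Lef1, 0.84 for Smo, 0.76 for Ptch1 and 0.65 for Lifr. Other genes gave 1.45 for Glod5, 1.36 for Sycp3, 1.27 for Ppm1h, -1.16 for Glb1, -0.90 for Stmn3, 0.85 for Perp, -0.80 for Stag3, -0.71 for H13 and 0.63 for Gadd45a. Over the 4 pairs of hairpins, Gbp2, Gbp2b, Gbp3 and Zfp36 changed direction, with 1.03, 1.17, 0.25 and 0.15 for Wapal shRNA2 minus Smc3 shRNA2, where Ptch1 gave 0.00, and Lifr gave 0.06 for Wapal shRNA1 minus Smc3 shRNA2.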

How the results depend on the processing

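The numbers of probe sets higher and lower (3022 and 4798) were 1314 and 2546 for Wapal shRNA2 minus Smc3 shRNA1, 234 and 741 with the hairpin as a random block, and 1492 and 3061 with the labels of 2 Wapal arrays exchanged. They were 0 and 0 with hairpin means, where Wapl (-2.57) and Smc3 (2.93) kept their values without passing. Leaving out 1 array gave 1673 to 3552 higher and 3291 to 5244 lower. Quantile normalization gave 3364 and 3959 (45.9% of calls higher, beside 38.6%), and median centring 2476 and 5288 (31.9%).

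Called probe sets where only Wapal depletion passed against Empty Vector (1672) numbered 19 with the random block, 0 with hairpin means, 590 with labels exchanged and 740 to 1313 without 1 array. Where only Smc3 depletion passed (2016) they numbered 202, 0, 1086 and 1277 to 1920. The difference between the contrasts without shared arrays (1682) was 2921 with an offset of 16, 2799 without dim probe sets, 3236 with an intensity trend, 406 with labels exchanged and 509 to 2162 without 1 array.

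Some genes turned direction for Wapal shRNA2 minus Smc3 shRNA2: Gbp2 (1.03), Gbp2b (1.17), Gbp3 (0.25), Hdac8 (0.23), Jun (0.16), Nodal (0.14), Plod2 (0.07) and Zfp36 (0.15), while Ptch1 gave 0.00, no difference. Vegfa turned (-0.02) for Wapal shRNA1 minus Smc3 shRNA1 and Lifr (0.06) for Wapal shRNA1 minus Smc3 shRNA2. The cause was not tested. Of 132 named genes tried under these settings, 70 passed with the random block and 120 passed without each array in turn. With labels exchanged 13 lost the call, Acvr1b, B2m, Ctsa, Foxh1, Glb1, Hdac8, Jun, Lifr, Neu1, Nodal, Npc1, Sox11 and Stag1.

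Replicates with the same number did not vary together (r of their deviations -0.156 to 0.057), so the numbers do not pair the arrays. With the replicate block 2716 were higher and 4515 lower, and of the 132 genes Neu1 and Lifr lost their calls.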
